A study of Mus musculus with 6 samples.

Results

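The genes described here are the nuclear genes for the subunits of the respiratory chain and the ATP synthase, the complexes that carry out oxidative phosphorylation. They were taken by symbol: names of the Ndufa, Ndufb, Ndufc, Ndufs and Ndufv series with a number, the 4 Sdh genes, all names beginning Uqcr or Atp5, and the Cox4 to Cox8 names followed by a, b or c. This took 82 of the 24413 genes in the table. By textbook assignment 35 belong to complex I, 4 to complex II, 8 to complex III, 18 to complex IV and 15 to complex V. Ndufa4 and Ndufa4l2 are counted with complex IV despite their names. Atp5s and Atp5sl match the pattern but are no structural subunits, and no transcript length was matched for Atp5sl.

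Oxidative phosphorylation takes electrons from NADH at complex I and from succinate at complex II, passes them through ubiquinone, complex III and cytochrome c to oxygen at complex IV, and uses the resulting proton gradient to make ATP at complex V. Most subunits are encoded in the nucleus by short, steadily transcribed genes, and a few catalytic membrane subunits of complexes I, III, IV and V are encoded by mitochondrial DNA. The mitochondrially encoded subunits were not analysed here. Several complex IV subunits have a common form and a second form made mainly in striated muscle or in male germ cells.

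The cells were W-EGFP cells, which are interstitial cells from the testes of E16.5 FLE-EGFP mice, a strain with an EGFP reporter; both groups share the strain, reporter and stage. Their transcripts were measured by RNA-seq. A sample held 10000 cells and was treated for 1 hour with the vehicle DMSO (3 libraries) or with 0.5 µM SAG, an agonist of the Hedgehog pathway protein Smoothened (3 libraries). The columns of both groups also carry "siCnt" in their names, which the labels do not explain. The labels do not say how many animals gave the cells or whether replicates were separate cultures, and each p-value therefore weighs a difference against the spread of these libraries alone, part of which may be technical.

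The DMSO libraries held 18486396 to 25491259 reads in genes and the SAG libraries 7694479 to 8804335. SAG replicate 3 stood apart: the ribosomal RNA gene Rn45s took 1.67% of its reads, against 0.326% to 0.360% in the other 5 libraries, and the median gene lay 0.197 log2 units from its group mean there, against 0.120 and 0.145 in SAG replicates 1 and 2 and at most 0.0627 in the DMSO libraries. Counts of calls are therefore given over 6 libraries and over the 5 libraries without SAG replicate 3. All 7 markers of interstitial progenitors were above a signal of 1, and their sum was 631 to 656 with DMSO and 1079 to 1264 with SAG. Of the 7, 4 were called higher and 1 lower over 6 libraries. Summed germ cell and erythroid markers stayed at or below 0.508 in all 6 libraries and macrophage markers at or below 3.30. The 4 Sertoli markers summed to 30.7 to 38.3 with DMSO and 28.6 to 29.7 with SAG. The 4 endothelial markers summed to 28.4 to 34.3 with DMSO and 32.5 to 47.1 with SAG. In both of these lists 2 markers were tested and 0 called. The 4 smooth muscle markers summed to 18229 to 18954 with DMSO and 11855 to 12920 with SAG, and all 4 were called lower. The 5 fetal Leydig markers summed to 116 in SAG replicate 3 against 19.0 to 33.3 elsewhere, and 1 of the 3 tested was called higher. The 5 striated muscle markers summed to 64.9 to 81.8 with DMSO and 95.8 to 119 with SAG, and the 3 that were tested were called higher. The 4 pericyte markers summed to 0.994 to 1.47 with DMSO and 1.65 to 3.98 with SAG, and the 1 that was tested was called higher. The part of these cell mixtures in the subunit differences was not tested.

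A group of subunit genes was lower after 1 hour of SAG, spread over complexes I, III, IV and V, and none was called higher over 6 libraries. Values are the deposited signal, reads in CPM form with the authors' library scaling inside, and log2 fold changes are SAG minus DMSO of log2(signal + 1). Of the 76 genes of the set that passed the filter, a mean signal of 1 or more over the 6 libraries, 18 fell and 0 rose at a Benjamini-Hochberg adjusted p under 0.05 in limma, and 27 had an unadjusted p under 0.05. Among all genes tested 16.6% were called lower and 12.9% higher, against 23.7% of the 76 genes lower. The 76 include Atp5s and Atp5sl, and of the 74 structural subunits alone 24.3% were called lower. The median log2 fold change was -0.15 for the 76 genes and -0.03 for all genes. All 3 SAG libraries lay below all 3 DMSO libraries for 28 of the 76 and above them for 1, against 26.8% and 21.2% of all tested genes. Of the 18 calls, 8 held with any 1 library left out: Atp5k, Ndufa1, Ndufa3, Uqcrq, Uqcrc2, Cox5b, Cox7b and Cox7a2. The other 10 were lost without at least 1 library, and 9, 10 and 9 genes were called without DMSO replicate 1, 2 and 3. The share of all tested genes called in those fits is not given here, so this drop cannot be set against it. In these bulk samples fewer cells of a type that expresses a gene and less RNA per cell cannot be told apart.

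Without SAG replicate 3, 43 of the 76 were called lower, which is 56.6% against 27.0% of all tested genes, and 1 was called higher, against 19.7%. Of the 74 structural subunits 58.1% were called lower. Both SAG libraries lay below all 3 DMSO libraries for 52 of the 76 and above them for 3, against 35.4% and 28.4% of all tested genes. The median was then -0.29, with -0.04 for all genes. All 18 genes called over 6 libraries were among the 43. In SAG replicate 3 itself, 24 of the 43 lay below every DMSO library, 5 lay within the DMSO range and 14 lay above every DMSO library. The fit behind all 43 calls holds only SAG replicates 1 and 2, and for those 14 genes SAG replicate 3 went the other way. This fit takes 1 variance per gene over both groups. Over all tested genes SAG replicates 1 and 2 differed by a median of 0.178 log2 units, and DMSO replicates 1 and 2 by 0.107. Where the SAG libraries are the wider group, its SE and p-values can be too small. With the transcript length and GC trends of each library removed as well, 43 were lower and 3 higher, and 39 of the 43 were shared; there 25.4% and 21.1% of all genes were called. Where libraries were scaled by their read totals alone, the median of all genes moved to 0.10 and that of the 76 genes to -0.01. The distance between them was -0.11 against -0.12 with the deposited scaling. Another scaling moves all genes of a library nearly alike, so this distance could hardly change and is no check. Scaling by read totals left 11 genes lower and 0 higher over 6 libraries (10.0% and 19.7% of all genes). It left 27 lower and 7 higher without SAG replicate 3 (16.4% and 31.9%). edgeR on the recovered reads called 15 lower and 0 higher over 6 libraries (14.5% and 15.2% of all genes) and 39 lower and 1 higher without SAG replicate 3 (23.2% and 22.0%).

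The summed signal of the 80 subunit genes was 7621, 7559 and 7595 in DMSO replicates 1 to 3 and 6516, 6007 and 8339 in SAG replicates 1 to 3. SAG replicates 1 and 2 were below all 3 DMSO libraries, at 85.8% and 79.1% of the DMSO mean, and SAG replicate 3 was above them, at 110%. With the deposited scaling the same order held in each complex taken alone. As a share of the reads of a library, the 80 genes held 7.22, 7.18 and 7.28 per mille with DMSO. With SAG they held 6.96, 6.44 and 8.44 per mille. By that share the order held in complexes I, III, IV and V but not in complex II. There SAG replicates 1 and 2, at 0.399 and 0.389 per mille, lay within the DMSO range of 0.380 to 0.409. SAG replicates 1 and 2 stood lowest for complex IV, at 84.0% and 75.9%, and least low for complex II, at 90.3% and 87.9%. SAG replicate 3 ran from 102% for complex IV to 130% for complex II. The sums carry no test, and complex V made up the largest of them through Atp5b and Atp5a1, the genes of the catalytic and the alpha subunit.

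**Figure D1:**
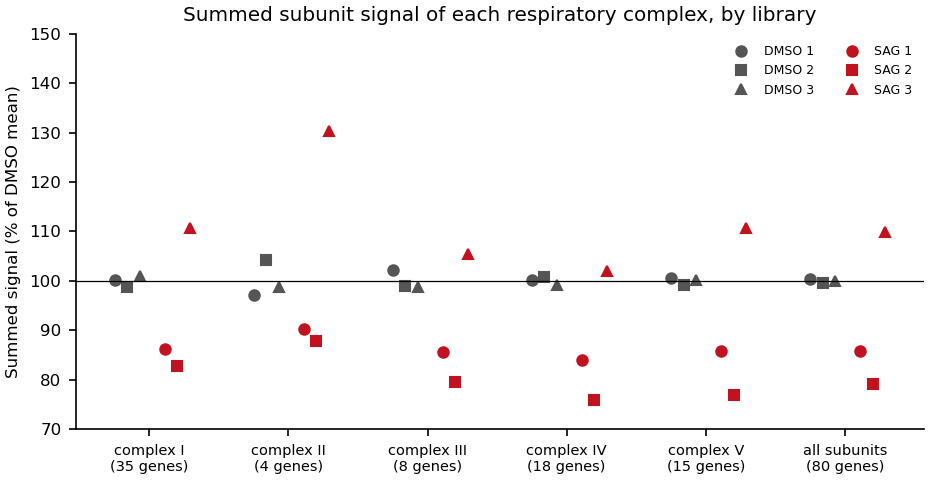
Summed signal of the subunit genes of each complex in each library, as a percentage of the DMSO mean (vertical axis, starting at 70%). DMSO libraries are grey and SAG libraries red. The deposited scaling is used. With it, SAG replicates 1 and 2 lie below the DMSO libraries in every complex. SAG replicate 3 lies above them, at 110% for all 80 subunits. As a share of reads this order did not hold for complex II.

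**Figure D2:**
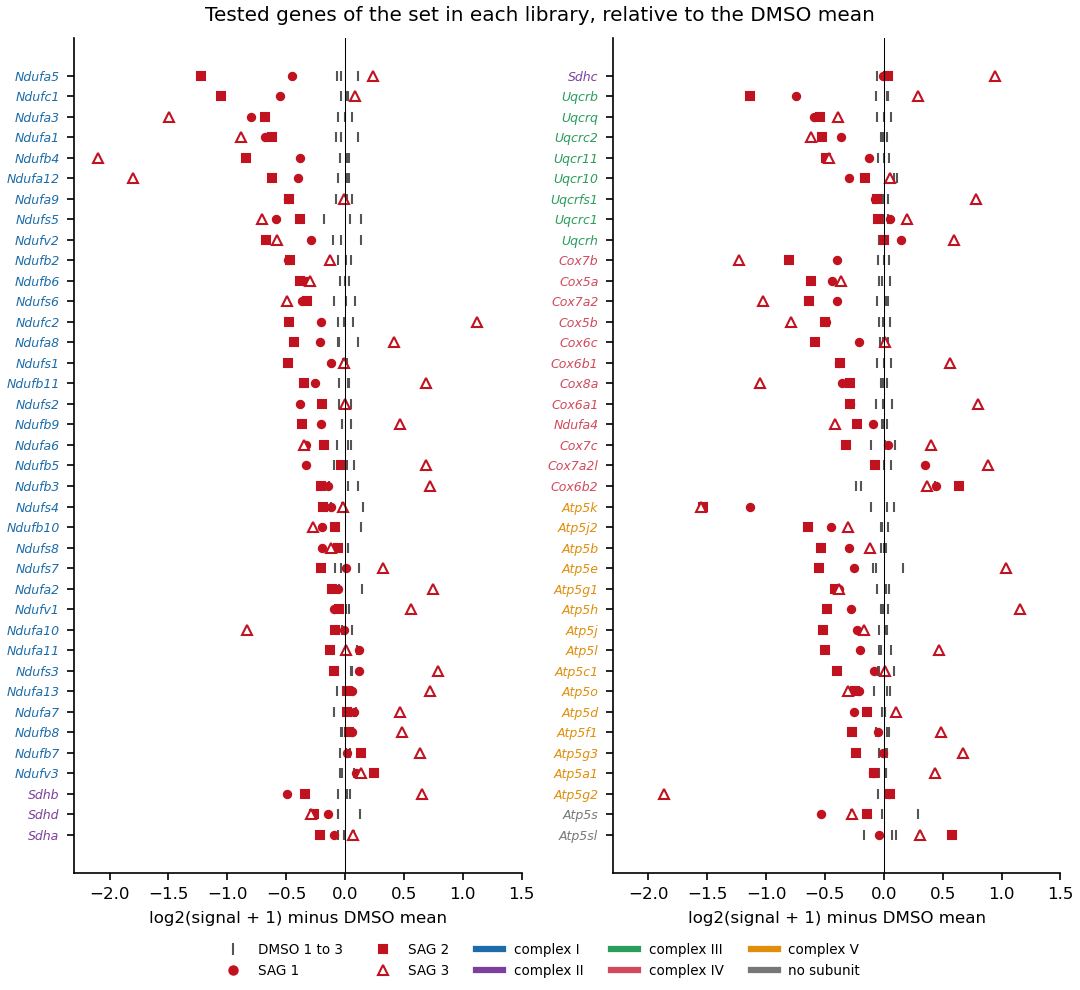
Log2(signal + 1) of each tested gene in each library minus the DMSO mean of that gene (horizontal axis, log2 units), ordered by complex and by the difference without SAG replicate 3. Bars are DMSO libraries, filled red points SAG replicates 1 and 2 and open triangles SAG replicate 3. The open triangles lie on either side of 0, while most filled points lie left of it.

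The gene with the lowest p of the set was Atp5k, which encodes subunit e of the ATP synthase membrane part, a small protein that helps hold the enzyme's dimers together. Its signal was 75.8, 66.0 and 72.8 in the DMSO libraries and 32.0, 23.9 and 23.6 in the SAG libraries. The groups were far apart and SAG replicate 3 matched the other SAG libraries. Atp5k fell 2.70-fold (log2 fold change -1.41, SE 0.14; limma, Benjamini-Hochberg adjusted p = 0.000144) over 6 libraries, and its log2 fold change was -1.34 (SE 0.11) without SAG replicate 3 and -1.27 with scaling by read totals. Atp5k is a minus-strand gene at 108433244 to 108434448 of chromosome 5 (GRCm38) with a transcript of 371 bases. Its value rested on 1290 to 1831 reads per DMSO library and 184 to 291 per SAG library.

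The promoter of Atp5k holds the recognition letters of NRF1, a transcription factor known for binding at genes of mitochondrial proteins. In the RefSeq windows (GRCm38.p6) from 250 bases before to 50 bases after each start site, 66 of the genes had 71 windows, and the palindromic NRF1 motif, shown in capitals below, was in 5 of the 71 (7.04%), against 2.02% of the windows of the other tested genes and 0.971% of all windows. The 5 genes were Atp5g2, Atp5k, Cox6a1, Ndufa11 and Uqcrc1. For 3 of them the motif lies wholly before the RefSeq start site and the stretch is not mainly within a GENCODE exon. These are printed here on the strand of the gene, 5′ to 3′ with the motif in capitals, since they share the letters and differ in their values. They are followed by Atp5g3, which holds the letters TNAAGGTCA that estrogen-related receptors bind, here as read from the opposite strand. GENCODE places the start of Atp5k further upstream than RefSeq does, so that 17 bases of its stretch lie within the GENCODE exon. Most of the motif is among those 17 bases, so it lies before the RefSeq start site but mainly after the GENCODE start. In the stretches of Cox6a1 and Ndufa11, 21 and 14 bases lie in an exon of a neighbouring gene on the opposite strand.
Atp5k, chr5:108434432-108434479, minus strand: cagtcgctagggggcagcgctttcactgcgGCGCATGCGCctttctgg
Cox6a1, chr5:115349103-115349150, minus strand: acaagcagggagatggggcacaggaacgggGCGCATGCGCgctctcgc
Ndufa11, chr17:56717672-56717719, plus strand: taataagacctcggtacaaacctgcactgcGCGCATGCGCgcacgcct
Atp5g3, chr2:73911362-73911408, minus strand: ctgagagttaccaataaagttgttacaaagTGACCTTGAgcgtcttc

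The genes that share the NRF1 letters had different values. Atp5k fell, as above. Ndufa11, an accessory subunit of complex I, had a mean signal of 44.8 ± 3.37 with DMSO and 44.7 ± 3.94 with SAG (SD, n = 3). Cox6a1 and Atp5g2 were moved by SAG replicate 3 in opposite directions, as given with their complexes below. Over all the genes the YY1 letters AAGATGGCG were in 7 of the 71 windows (9.86%, against 2.93% of the other tested genes' windows), CCGGAAG, bound by GABPA and other ETS factors, in 16 (22.5% against 17.2%), TNAAGGTCA in 3 (4.23% against 0.690%) and the hypoxia response letters TACGTG in 1 (1.41% against 3.69%). Both strands were searched. A match is a description of the letters and shows no binding.

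Complex I, the NADH dehydrogenase, had 8 of its 35 genes called lower over 6 libraries and 19 without SAG replicate 3, with 0 called higher in both, where 16.6% and 27.0% of all tested genes were called lower. The 8 calls became 3, 3 and 2 without DMSO replicate 1, 2 and 3. With scaling by read totals they became 3, which is 8.57% against 10.0% of all tested genes. Its median log2 fold change was -0.13 over 6 libraries and -0.28 without SAG replicate 3. Of the 28 accessory subunits, which surround the catalytic core, 7 were called over 6 libraries and 16 without SAG replicate 3. Of the 7 core subunits, 1 was called over 6 libraries and 3 without SAG replicate 3.

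Ndufa3, an accessory subunit of the membrane arm, was at 71.4, 65.4 and 68.4 in the DMSO libraries and at 38.8, 42.4 and 23.6 in the SAG libraries. The groups did not overlap, and SAG replicate 3 was the lowest library. Ndufa3 fell 1.96-fold (log2 fold change -0.99, SE 0.19; limma, Benjamini-Hochberg adjusted p = 0.00505), with -0.74 (SE 0.09) without SAG replicate 3. Ndufa1, a small membrane subunit needed for assembly of the complex, was at 37.4, 36.3 and 41.5 with DMSO and at 23.5, 24.6 and 20.3 with SAG. Here all 3 SAG libraries were alike and below all DMSO libraries. Ndufa1 fell 1.68-fold (log2 fold change -0.73, SE 0.12; limma, Benjamini-Hochberg adjusted p = 0.00272). Ndufa3 lies on chromosome 7 at 3617373 to 3620327 (plus strand) and Ndufa1 on the X chromosome at 37187588 to 37191163 (minus strand) of GRCm38.

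Ndufs5, an accessory subunit, and Ndufv2, the iron-sulfur protein of the NADH-binding module and the called core subunit, also fell over 6 libraries. Ndufs5 was at 54.9, 44.1 and 51.5 with DMSO and 33.0, 38.1 and 30.2 with SAG (log2 fold change -0.56, SE 0.13). Ndufv2 was at 79.1, 82.6 and 93.3 with DMSO and 69.1, 53.0 and 56.5 with SAG (log2 fold change -0.51, SE 0.13). The groups did not overlap for either gene. The limma, Benjamini-Hochberg adjusted p was 0.0124 for Ndufs5 and 0.0150 for Ndufv2. The calls were lost without DMSO replicate 1 or 3 for Ndufs5 (adjusted p up to 0.0732 in the same test) and without DMSO replicate 2 or 3 for Ndufv2 (up to 0.0855). Ndufb6 and Ndufs6, called as well, were named after their values were seen; they stood at -0.34 and -0.40 on the log2 scale, and both lost their calls without DMSO replicate 1, 2 or 3 and Ndufb6 also without SAG replicate 1 or 2.

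Other genes of complex I had SAG replicate 3 on its own. Ndufb4, a membrane-arm subunit with the lowest signal per kilobase of transcript of the complex, was at 21.1, 20.2 and 21.4 with DMSO and at 15.8, 11.2 and 4.11 with SAG. All SAG libraries were lower, but SAG replicate 3 was 3.29-fold below the mean of the other SAG libraries, so that the log2 fold change was -1.11 (SE 0.36; limma, Benjamini-Hochberg adjusted p = 0.0427) over 6 libraries and -0.61 (SE 0.15) without it. Ndufa12, an accessory subunit named after its values were seen, had the same pattern, with 56.0, 53.1 and 56.7 against 41.6, 35.5 and 15.2. Both calls were lost without DMSO replicate 1, 2 or 3, and that of Ndufb4 also without SAG replicate 2 (limma, Benjamini-Hochberg adjusted p up to 0.119).

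Ndufa5 and Ndufc1 went the other way in SAG replicate 3. Ndufa5, an accessory subunit, was at 30.3, 29.4 and 33.4 with DMSO and at 22.4, 12.7 and 36.7 with SAG. Ndufc1, a small membrane subunit, was at 31.6, 30.3 and 31.1 with DMSO and at 20.9, 14.4 and 33.0 with SAG. In both genes SAG replicates 1 and 2 were below every DMSO library and SAG replicate 3 above every one. Over 6 libraries neither was called (limma, Benjamini-Hochberg adjusted p = 0.250 and 0.141), and without SAG replicate 3 they had the largest differences of the complex, -0.84 (SE 0.16) for Ndufa5 and -0.80 (SE 0.13) for Ndufc1. Ndufa7, the accessory subunit with the highest signal per kilobase, was at 60.8, 57.3 and 53.4 with DMSO and 60.1, 57.8 and 79.1 with SAG and was not called in either test.

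Complex II, succinate dehydrogenase, is encoded wholly in the nucleus and also works in the citric acid cycle. None of its 4 genes was called over 6 libraries, and 1 was called lower without SAG replicate 3. Among all tested genes 16.6% and 27.0% were called lower. Sdhb, the iron-sulfur subunit, was at 75.5, 74.5 and 70.4 with DMSO and at 51.7, 57.6 and 116 with SAG. SAG replicates 1 and 2 were below the DMSO range and SAG replicate 3 was above it. Its log2 fold change was -0.06 (SE 0.25) over 6 libraries and -0.42 (SE 0.09; limma, Benjamini-Hochberg adjusted p = 0.000385) without SAG replicate 3. Sdha, the flavoprotein subunit, was at 160, 175 and 165 against 157, 143 and 174. Sdhc, a membrane anchor with the longest transcript of the set (3171 bases), was at 92.6, 97.0 and 99.0 against 95.6, 98.7 and 186. In both, SAG replicate 3 was the highest SAG library, and in Sdhc it stood alone. Sdhd, the other anchor, was at 73.3, 83.7 and 73.3 against 69.3, 63.5 and 62.6. Its groups did not overlap, and its log2 fold change of -0.23 (SE 0.11) missed the threshold (limma, Benjamini-Hochberg adjusted p = 0.125).

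Complex III, the cytochrome c reductase, had 2 of 8 genes called lower over 6 libraries and 4 without SAG replicate 3, against 16.6% and 27.0% of all tested genes, with medians of -0.25 and -0.27. Uqcrq, a small membrane subunit and the gene with the highest signal per kilobase of the complex, was at 141, 129 and 135 with DMSO and at 89.3, 92.2 and 103 with SAG. Uqcrc2, a core protein on the matrix side, was at 126, 121 and 123 with DMSO and at 95.7, 85.4 and 79.9 with SAG. Both had tight groups that did not overlap. Uqcrq fell 1.42-fold (log2 fold change -0.51, SE 0.10; limma, Benjamini-Hochberg adjusted p = 0.00523) and Uqcrc2 fell 1.41-fold (-0.50, SE 0.10; adjusted p = 0.00633 in the same test).

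Uqcrb, a small subunit next to the ubiquinone site, had the largest difference of complex III once SAG replicate 3 was set apart. It was at 77.1, 71.7 and 76.6 with DMSO and at 44.3, 33.6 and 92.2 with SAG. SAG replicates 1 and 2 were 1.93-fold below the DMSO mean (log2 fold change -0.94, SE 0.10; limma, Benjamini-Hochberg adjusted p = 3.95e-08), whereas SAG replicate 3 was above every DMSO library and no call was made over 6 libraries (adjusted p = 0.200). Uqcr11, another small subunit, was at 67.6, 65.6 and 63.3 with DMSO and at 60.1, 46.4 and 47.1 with SAG. Its groups did not overlap, and it was called in the test without SAG replicate 3 (log2 fold change -0.31, SE 0.10), at a limma, Benjamini-Hochberg adjusted p of 0.0148 against 0.0545 over 6 libraries. The difference between the tests was not itself tested.

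Complex IV, cytochrome c oxidase, had 5 of its 12 tested genes called lower over 6 libraries and 8 without SAG replicate 3, against 16.6% and 27.0% of all tested genes, with medians of -0.25 and -0.35. Without DMSO replicate 1 the 5 calls became 3. All of them are common forms, of which 11 were tested. Cox7b, a small membrane subunit, was at 96.0, 89.9 and 92.9 with DMSO and at 70.3, 52.8 and 39.0 with SAG. Cox7a2, the common form of subunit 7a, was at 67.7, 64.2 and 68.4 with DMSO and at 50.5, 42.6 and 32.2 with SAG. In both genes the groups did not overlap and the SAG libraries were spread more widely than the DMSO libraries. Cox7b fell 1.72-fold (log2 fold change -0.81, SE 0.18) and Cox7a2 1.60-fold (-0.69, SE 0.15), at limma, Benjamini-Hochberg adjusted p of 0.00975 and 0.00988.

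Cox5a and Cox5b, which form the matrix-facing side of the complex, also fell. Cox5b was at 141, 136 and 132 with DMSO and at 96.8, 96.4 and 78.7 with SAG, a 1.51-fold fall (log2 fold change -0.59, SE 0.11; limma, Benjamini-Hochberg adjusted p = 0.00416). Cox5a was at 106, 101 and 98.5 with DMSO and at 74.7, 66.0 and 78.6 with SAG, a 1.39-fold fall (-0.47, SE 0.10; limma, Benjamini-Hochberg adjusted p = 0.00891). For neither gene did the groups overlap. The fifth called gene was Cox8a, a small membrane subunit, at 126, 125 and 129 with DMSO and 98.9, 104 and 60.4 with SAG. All SAG libraries were lower, with SAG replicate 3 far below the others (log2 fold change -0.56, SE 0.18 over 6 libraries and -0.32, SE 0.08 without it). The call of Cox5a was lost without DMSO replicate 1 (limma, Benjamini-Hochberg adjusted p = 0.0587), and that of Cox8a without DMSO replicate 1, 2 or 3 (up to 0.132).

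Cox6a1 and Cox6b1, common subunits at the intermembrane face, had SAG replicate 3 far above the rest. Cox6a1, with the highest signal per kilobase of complex IV, was at 195, 205 and 187 with DMSO and at 160, 160 and 341 with SAG. Cox6b1 was at 121, 132 and 127 with DMSO and at 97.0, 97.8 and 187 with SAG. SAG replicates 1 and 2 were nearly equal and lay below the DMSO range in both genes. The log2 fold change of Cox6a1 was 0.07 (SE 0.25) over 6 libraries and -0.29 (SE 0.07) without SAG replicate 3, and that of Cox6b1 was -0.06 (SE 0.22) and -0.38 (SE 0.08). Both passed the test without SAG replicate 3 (limma, Benjamini-Hochberg adjusted p = 0.00169 and 0.000253). Ndufa4, a complex IV subunit once assigned to complex I, was at 128, 125 and 126 against 119, 108 and 94.4. Its groups did not overlap, and it was not called in either test, at -0.25 (SE 0.11) over 6 libraries.

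**Figure D3:**
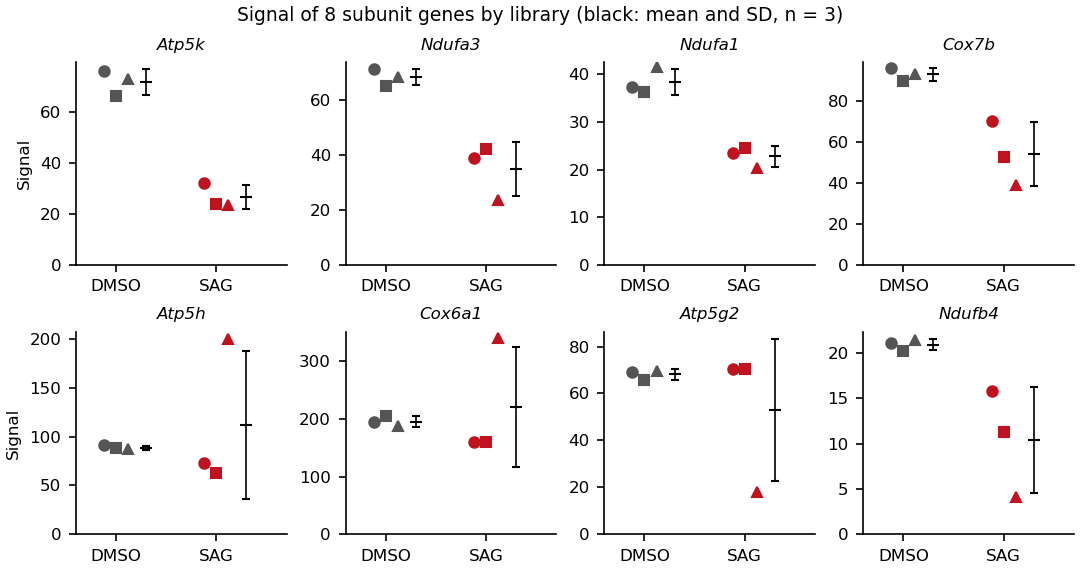
Signal (vertical axis from 0) of 8 genes in the DMSO (grey) and SAG (red) libraries; circles, squares and triangles are replicates 1, 2 and 3, and the black bar is the mean with its SD over 3 libraries. In the upper row every SAG library lies below every DMSO library, as for Atp5k at 23.6 to 32.0 against 66.0 to 75.8. In the lower row SAG replicate 3 stands apart, above the other libraries in Atp5h and Cox6a1 and below them in Atp5g2 and Ndufb4.

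Of the 7 tissue-restricted forms of complex IV subunits, 6 were at the edge of detection. Cox8b, a striated muscle form, and Cox8c, a testis form, had 0 reads in all 6 libraries, and Cox7b2, a testis form, had 1 read in SAG replicate 3 and 0 elsewhere. The muscle forms Cox6a2 and Cox7a1 had at most 7 and 22 reads in a library, and Ndufa4l2, a hypoxia-inducible relative of Ndufa4, at most 16. These 6 genes were below the filter and were not tested, and at such counts no difference was detectable. Cox6b2, the testis form of subunit 6b, passed the filter, at 7.41, 4.30 and 4.46 with DMSO and 7.47, 8.69 and 7.06 with SAG. It was the 1 gene of the set called higher without SAG replicate 3 (log2 fold change 0.54, SE 0.21; limma, Benjamini-Hochberg adjusted p = 0.0382). It was not called over 6 libraries, at 0.48 (SE 0.21; adjusted p = 0.115), and DMSO replicate 1 lay within the range of the SAG libraries there. Its values rest on 55 to 179 reads in a library.

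In ratios of related forms within a library most of that library's scaling cancels, apart from the 1 added to each signal, which weighs most at the low signal of Cox6b2. Of the 10 pairs considered, 4 had both genes above the filter. The log2 ratio of Cox7a2l, a gene known for joining complexes III and IV into supercomplexes, to Cox7a2 was -0.17, 0.04 and -0.11 with DMSO and 0.67, 0.48 and 1.83 with SAG. Every SAG library was above every DMSO library, by 1.08 in the mean, and by 0.66 without SAG replicate 3. The ratio of Atp5g1 to Atp5g3 was lower in every SAG library than in every DMSO library, by 0.53 in the mean, as -1.12, -1.21 and -1.08 against -1.51, -1.31 and -2.20. For both pairs an exact permutation test (two-sided) gave p = 0.1, which is as low as 6 libraries in these groups allow, and 0.2 after Benjamini-Hochberg adjustment over the 4 pairs. The other pairs overlapped between groups, Cox6b2 to Cox6b1 with an exact permutation p of 0.2 and Atp5g2 to Atp5g3 with an exact permutation p of 0.9.

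**Figure D4:**
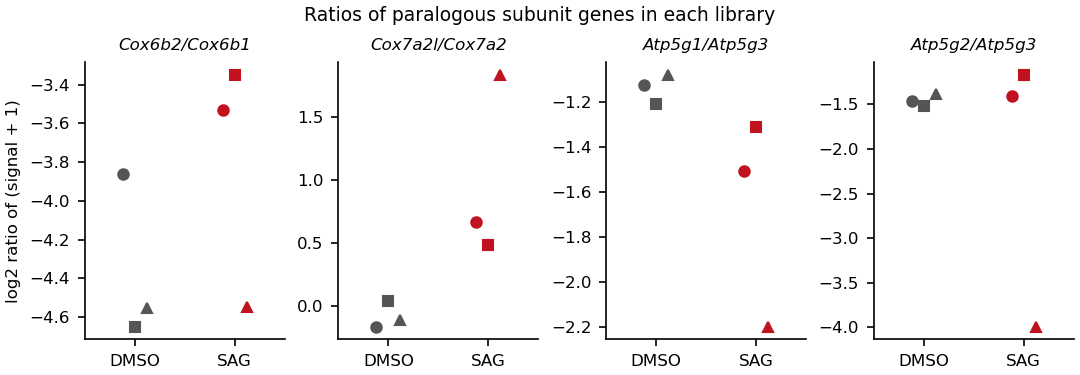
Log2 ratio of (signal + 1) of 2 related genes within each library (vertical axis, log2 units; scales differ between panels) for the 4 pairs tested; DMSO grey, SAG red, with circles, squares and triangles for replicates 1, 2 and 3. The SAG libraries lie above DMSO for Cox7a2l/Cox7a2 and below it for Atp5g1/Atp5g3. SAG replicate 3 is far below all others for Atp5g2/Atp5g3, at -3.99.

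Complex V, the ATP synthase, had 3 of its 15 genes called lower over 6 libraries, Atp5k, Atp5j2 and Atp5g1, and 11 without SAG replicate 3, with medians of -0.15 and -0.35. Of all tested genes 16.6% and 27.0% were called lower. Without DMSO replicate 1, 2 or 3 the 3 calls of the complex became 1. Its 3 small membrane subunits Atp5k, Atp5j2 and Atp5l were all called lower without SAG replicate 3. Atp5j2, subunit f, was at 127, 122 and 123 with DMSO and at 90.3, 78.7 and 100 with SAG. It fell 1.38-fold with no overlap of the groups (log2 fold change -0.47, SE 0.11; limma, Benjamini-Hochberg adjusted p = 0.0122). The calls of Atp5j2 and Atp5g1 were lost without DMSO replicate 1, 2 or 3, at a limma, Benjamini-Hochberg adjusted p of up to 0.0673 and 0.0818.

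The c-ring, which turns as protons pass, is built from a subunit that 3 genes encode with different import sequences. Atp5g1 was at 87.5, 81.5 and 86.3 with DMSO and at 65.2, 63.7 and 65.0 with SAG. It fell 1.32-fold with SAG libraries that were nearly equal (log2 fold change -0.39, SE 0.09; limma, Benjamini-Hochberg adjusted p = 0.0137). Atp5g2 was at 69.0, 65.6 and 69.8 with DMSO and at 70.3, 70.4 and 18.0 with SAG. Atp5g3, the most abundant per kilobase of the 3, was at 192, 190 and 184 against 187, 159 and 302. Neither Atp5g2 nor Atp5g3 was called in either test. SAG replicate 3 was 3.91-fold below the other SAG libraries for Atp5g2 and 1.74-fold above them for Atp5g3.

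The catalytic F1 head had 0 of 5 genes called over 6 libraries and 4 without SAG replicate 3. Atp5b, the catalytic beta subunit and the gene with the highest signal per kilobase of the complex, was at 1208, 1174 and 1196 with DMSO and at 974, 823 and 1100 with SAG. All SAG libraries were lower, and the log2 fold change was -0.31 (SE 0.12; limma, Benjamini-Hochberg adjusted p = 0.0704) over 6 libraries and -0.41 (SE 0.07; 1.56e-05 in the same test) without SAG replicate 3. Atp5c1, the central shaft subunit gamma and the gene with the lowest signal per kilobase, was at 111, 112 and 122 against 108, 86.9 and 116. SAG replicate 3 lay within the DMSO range there. In the peripheral stalk, which holds the head still, Atp5j was at 123, 128 and 129 with DMSO and 108, 88.2 and 112 with SAG. Its groups did not overlap, and it was called without SAG replicate 3 (-0.37, SE 0.08) and not over 6 libraries (-0.31, SE 0.11). Atp5h, a stalk subunit named after its values were seen, was at 91.1, 88.2 and 87.2 with DMSO and at 73.0, 63.1 and 200 with SAG, the widest gap of SAG replicate 3 upward in the set.

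SAG replicate 3 differed from SAG replicates 1 and 2 for the genes of the set in both directions. It was above both in 48 of the 76 tested genes, below both in 20 and between them in 8, where 40.7% of all tested genes were above and 40.3% below. The difference from the mean of SAG replicates 1 and 2 ran from -1.91 for Atp5g2 to 1.54 for Atp5h, with a median of 0.29. It was over 0.5 in 28 genes (36.8%) and under -0.5 in 8 (10.5%), against 12.7% and 12.9% of all tested genes.

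The transcripts of the set are short, with a median length of 732 bases against 2848 for all tested genes. Across 12002 tested genes the difference of SAG replicate 3 fell with transcript length (Spearman's rho -0.23), but not steadily: its median was -0.07 for transcripts up to 500 bases, 0.16 to 0.20 in the classes from 500 to 1500 bases, and -0.17 above 5000 bases. Across the 75 genes of the set with a length, Atp5s among them, rho was 0.06. The genes of the set lay above all genes of their own length in each class with at least 4 of them, at 0.41 against 0.16 for 500 to 750 bases and 0.58 against 0.20 for 1000 to 1500 bases. In SAG replicates 1 and 2 against DMSO they lay below genes of their own length in the same classes, at -0.44 against 0.10 up to 500 bases and -0.16 against -0.01 from 1500 to 2000 bases. These correlations are across genes, which share libraries and are no replicates.

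**Figure D5:**
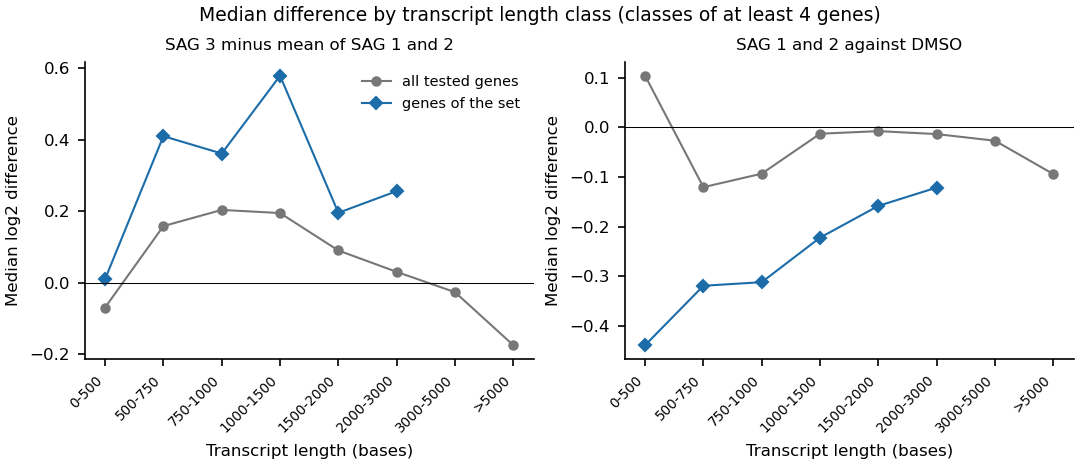
Median log2 difference by class of transcript length in bases (horizontal axis), for all tested genes (grey) and the genes of the set (blue). Left, SAG replicate 3 minus the mean of SAG replicates 1 and 2; right, SAG replicates 1 and 2 against DMSO. The genes of the set lie above all genes on the left and below them on the right, as at 0.41 against 0.16 and -0.32 against -0.12 for 500 to 750 bases.

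Genes that serve the same pathway without matching the symbols moved in part. Of 7 tested subunits and carriers outside the pattern, 2 were called lower and 0 higher over 6 libraries. The counts were 4 and 1 without SAG replicate 3. Among all tested genes 16.6% and 27.0% were called lower and 12.9% and 19.7% higher. Cycs, which encodes cytochrome c, was at 69.4, 68.7 and 72.1 with DMSO and at 45.8, 41.5 and 41.0 with SAG, a 1.64-fold fall with no overlap (log2 fold change -0.70, SE 0.10; limma, Benjamini-Hochberg adjusted p = 0.00123). Atpif1, the inhibitor of the ATP synthase, fell 1.29-fold (-0.37, SE 0.09; limma, Benjamini-Hochberg adjusted p = 0.0177), a call lost without DMSO replicate 1, 2 or 3 (up to 0.106). Cox4i1, the common subunit 4 of complex IV, was at 254, 245 and 239 with DMSO and at 281, 286 and 471 with SAG. It was higher in every SAG library, missed the threshold over 6 libraries (0.45, SE 0.18; limma, Benjamini-Hochberg adjusted p = 0.0877) and passed it without SAG replicate 3 (0.21, SE 0.07; 0.0130 in the same test). Its second form Cox4i2 stayed at or below 1.47 in all libraries and was not tested.

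Assembly factors, which build the complexes without staying in them, were called in small numbers: of 47 tested, 3 fell and 1 rose over 6 libraries, and 10 fell and 1 rose without SAG replicate 3, with medians of -0.07 and -0.14. Both shares called lower were below the 16.6% and 27.0% of all tested genes. The 3 were Ndufaf2 and Ndufaf4 of complex I and Uqcc2 of complex III, which fell 1.80-fold, 1.51-fold and 1.33-fold. The call of Ndufaf2 held with any 1 library left out, and those of Ndufaf4 and Uqcc2 were lost without DMSO replicate 1, 2 or 3 or SAG replicate 2. The gene that rose was Cox14, a factor for complex IV, at 18.8, 20.4 and 23.6 with DMSO and 27.2, 26.9 and 31.7 with SAG (log2 fold change 0.44, SE 0.13; limma, Benjamini-Hochberg adjusted p = 0.0367). The Cox14 call was lost without DMSO replicate 1, 2 or 3 or SAG replicate 1. Cox17, the copper chaperone of complex IV, was at 46.9, 44.9 and 44.2 with DMSO and at 22.7, 24.6 and 46.4 with SAG. SAG replicates 1 and 2 were 1.92-fold below the DMSO mean while SAG replicate 3 lay within the DMSO range, and Cox17 was called without SAG replicate 3 and not over 6 libraries. Acad9 of complex I and Sco1 of complex IV were likewise called without SAG replicate 3 and not over 6 libraries, at -0.35 and -0.56 without it, and all their SAG libraries lay below the DMSO libraries. None of the 4 factors of complex II or the 3 of complex V was called in either test.

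Of 15 tested regulators of these genes, 1 was called lower and 0 higher over 6 libraries. The counts were 2 and 1 without SAG replicate 3. Both shares called lower were below the 16.6% and 27.0% of all tested genes, of which 12.9% and 19.7% were called higher. Slirp, which stabilises mitochondrial messenger RNA, was at 32.8, 28.7 and 28.9 with DMSO and at 18.6, 13.9 and 8.99 with SAG, and fell 2.18-fold (log2 fold change -1.12, SE 0.22; limma, Benjamini-Hochberg adjusted p = 0.00515). Yy1, which encodes the factor YY1, was at 73.8, 74.4 and 71.7 against 85.5, 88.7 and 136. It was higher in every SAG library and was called without SAG replicate 3 (0.24, SE 0.08) but not over 6 libraries (0.46, SE 0.17). Lrpprc, the partner of Slirp and named after its values were seen, was at 70.2, 67.9 and 68.0 with DMSO and at 57.6, 54.1 and 69.0 with SAG, and was called lower without SAG replicate 3 (-0.29, SE 0.09; limma, Benjamini-Hochberg adjusted p = 0.00746). Ppargc1a, a coactivator of many mitochondrial genes and likewise named after its values were seen, was below the filter and not tested. It had 2, 2 and 0 reads in the DMSO libraries and 11, 17 and 8 in the SAG libraries, where every SAG library was above every DMSO library although the SAG libraries were less deeply sequenced.

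The citric acid cycle, which supplies the chain with electrons, had 8 of 13 genes called lower and 0 higher over 6 libraries. The counts were 11 and 0 without SAG replicate 3. Its medians were -0.36 and -0.33, against -0.03 and -0.04 for all tested genes. Of all tested genes 16.6% and 27.0% were called lower and 12.9% and 19.7% higher. Ogdh, a subunit of the 2-oxoglutarate dehydrogenase, was at 209, 212 and 213 with DMSO and at 151, 156 and 140 with SAG. Idh3a, the catalytic subunit of NAD-dependent isocitrate dehydrogenase, was at 124, 123 and 118 with DMSO and at 90.1, 77.9 and 73.9 with SAG. Both had narrow groups that did not overlap, and SAG replicate 3 was the lowest library in each. Idh3a fell 1.51-fold and Ogdh 1.42-fold (log2 fold change -0.59, SE 0.11, and -0.50, SE 0.09). Mdh2, the mitochondrial malate dehydrogenase, fell 1.31-fold, from 305, 277 and 293 to 216, 224 and 229. The calls of Idh3a and Ogdh held with any 1 library left out, and that of Mdh2 was lost without DMSO replicate 1 or 3 (limma, Benjamini-Hochberg adjusted p up to 0.0789).

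Of the 82 genes, 36 overlap another annotated gene on GRCm38. The strand setting of the counting is not given in the sources used here, so reads of overlapping genes may be mixed. Atp5j overlaps Gabpa by 701 bases and Uqcrc2 overlaps Pdzd9 by 794 bases, both on the opposite strand. On the same strand no strand setting separates the reads. Atp5o overlaps Cryzl1 by 39654 bases and Donson by 4373 bases there. Ndufa13, Ndufb2, Ndufb8 and Ndufb9 each overlap a protein-coding gene on the same strand as well. Many of these short genes also have processed pseudogenes of near-identical sequence, and how reads were shared with those is likewise not given. The values of single small subunits are uncertain to that extent.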

How the data were processed

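Gene expression was measured by RNA-seq in 6 libraries, 3 with SAG and 3 with DMSO, prepared from total RNA (RNeasy Micro) with the NEBNext Ultra II Directional kit, which keeps strand, per the labels' protocols. The submitters' processing notes name featureCounts 2.0.0, STAR, Trim Galore 0.6.4, edgeR under version 2.2.1, and build GRCm38 (mm10). Annotation and strand setting are not given in the sources used here. As files, the authors deposited 1 table of normalized signal per gene symbol, named as CPM, whose column sums differ between libraries because library scaling factors are inside. Every value (100%) was a whole multiple of 1 read's worth (tolerance 0.01), so whole read counts could be recovered from the deposited values. The 92 spike-in rows, which name no gene, held at most 0.0157% of the reads of a library and were left out. Columns were matched to samples by treatment and replicate number.

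Log2(signal + 1) was fitted with limma 3.58.1 (eBayes with trend, group only) in R 4.3.3 on 12550 genes (mean signal 1 or more), and again without SAG replicate 3 on 12512 genes, with Benjamini-Hochberg adjustment over all tested genes and a threshold of 0.05. The pseudocount of 1 understates changes at low signal. Folds given without a log are the ratio of the 2 mean signals. The fit was tested on simulated data for SAG against DMSO with 12457 genes. It recovered 19% of 100 genes set to 1.5-fold and 75% of 96 set to 2-fold. Of its calls 9% were false, above the threshold of 0.05. No other gene was changed there, while 16.6% and 12.9% of genes were called lower and higher in the data. The recovered shares therefore do not carry over to the data. edgeR 4.0.16 and DESeq2 1.42.0 on the recovered counts, other scalings, filters and pseudocounts, a replicate block and each library left out were alternatives. Transcript lengths, GC and coordinates came from GENCODE M21 (GRCm38), and promoters from RefSeq GRCm38.p6. Lengths are those of the best supported transcripts, since the authors' annotation is not known.

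The genes, gene lists and tests were chosen with earlier results of these data known, so no list count is independent support. Genes named with values were the related and tissue-restricted forms, in each complex up to 4 with the smallest p over 6 libraries, up to 3 called in each direction with the largest difference without SAG replicate 3, and the highest and lowest per kilobase. To these came the Sdh genes, up to 3 of each further list with the smallest p where either test called them, and symbols that are no subunit. Atp5s and Atp5sl were not called in either test. Genes named for a promoter motif were chosen by the motif, and other names are said to be chosen after their values were seen.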

Additional observations from a re-analysis of the deposited data

Results flagged for a closer look

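The table holds 92 rows for synthetic spike-in RNAs, which enter no comparison above. They had 0 reads in the 3 DMSO libraries and 111, 54 and 1205 reads in SAG replicates 1, 2 and 3, and were noticed because the SAG libraries held a signal that the control libraries lacked. SAG replicate 3, the library that departs from the other SAG libraries in the genes above, had the most. The labels do not say whether spike-in RNA was added to any sample, and the part of this in the subunit values was not tested.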

How the results depend on the processing

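Over 6 libraries the count of the genes called lower (18) stayed within 15 to 21 and the count called higher at 0 under other pseudocounts, filters and limma settings, DESeq2 size factors, edgeR, DESeq2, removal of length and GC trends, and DMSO reads thinned to the SAG depth; scaling by read totals gave 11 lower and a median of -0.0062. With 1 library left out the lower count ran from 9 to 43, the higher count from 0 to 1 and the median from -0.29 to -0.087. The lower count was 9 or 10 without DMSO replicate 1, 2 or 3, and 43 without SAG replicate 3. In the alternatives that also set SAG replicate 3 apart, which were chosen after seeing the data, 43 genes were lower and 3 higher with length and GC trends removed, 40 and 1 with DESeq2 size factors, 39 and 1 with edgeR, and 27 and 7 with read totals. With the replicate number as a block 16 were lower. Over 6 libraries the share of all tested genes called lower was 14.5% with edgeR, 16.1% with trends removed and 10.0% with read totals. For the DESeq2, block, pseudocount, filter, other limma and thinned fits that share is not given here. The same holds for the fits without a DMSO library or without SAG replicate 1 or 2. The counts of those fits therefore cannot be set against all genes. Same-numbered libraries did not deviate together (correlations from -0.02 to 0.03), and not every library correlated best with its own number. These values show no pairing by number, but with 3 libraries per group they cannot exclude one.

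Among the genes that the rule names, signs turned for 7 that were not called over 6 libraries, and the cause was not tested beyond the construction of each alternative. With read totals over 6 libraries the log2 fold changes were 0.077 for Cox6b1, 0.060 for Sdha and 0.076 for Sdhb; edgeR and DESeq2 gave 0.040 and 0.043 for Cox6b1 and 0.062 and 0.067 for Sdhb; and Cox6a1 was at -0.12 with length and GC trends removed. With SAG replicate 3 set apart, removal of the trends, read totals, DESeq2 size factors and edgeR gave -0.40, -0.12, -0.26 and -0.25 for Cox6a1. Under the last 3 of these Atp5g2 was at 0.21, 0.077 and 0.092; Atp5g3 was at -0.015, -0.095 and -0.078 under trends removed, DESeq2 size factors and edgeR; Ndufa4 was at 0.013 with trends removed and 0.0072 with read totals, and Sdha at 0.015 with read totals. With 1 library left out Cox6a1 ran from -0.29 to 0.26, Cox6b1 from -0.38 to 0.095, Atp5g2 from -0.91 to 0.047, Atp5g3 from -0.13 to 0.33 and Sdhb from -0.42 to 0.15. Of all 76 tested genes 33 turned in sign under some alternative, 0 of them among the 18 called; of those named outside the rule, Atp5h moved from 0.13 to -0.38 and Atp5a1 from 0.086 to -0.089 without SAG replicate 3, and Atp5l was at 0.063 and Ndufa11 at 0.14 with read totals. The SAG libraries held fewer reads than the DMSO libraries by a factor of 2.67 in the group means, which limits the low complex IV forms most.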
